A study of Mus musculus with 12 samples.

Results

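Low oxygen was compared with ordinary oxygen in primary mouse macrophages that were held in lactate-containing medium throughout. Of the 12 libraries of the series, 6 enter this comparison, chosen by their labels: 3 hypoxia-lactate libraries (1% oxygen with 25 mM sodium lactate) and 3 normoxia-lactate libraries (ordinary oxygen with 25 mM sodium lactate). All cells were grown from the bone marrow of C57BL/6 mice and taken as a primary culture at day 7, and no group carries a genetic change. The other 6 libraries had 25 mM NaCl, the salt control, in place of lactate (hypoxia-NaCl and normoxia-NaCl, 3 each). They enter the shared estimate of the spread, and they serve as the set against which the change in lactate medium is compared. The labels give neither the length of the exposure nor the number of mice or cultures behind a group. The p-values therefore describe the spread among these libraries, and that spread may be technical. A culture dish is a model of poorly perfused tissue only in its oxygen and its lactate, and bulk RNA cannot tell apart fewer cells of a type and less RNA per cell.

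Cells sense oxygen through prolyl hydroxylases that mark the alpha subunits of hypoxia-inducible factor (HIF) for destruction. When oxygen is scarce the subunits persist, pair with ARNT and bind DNA at a short core, ACGTG or GCGTG, near genes for glucose uptake, glycolysis, lactate export, mitophagy, collagen hydroxylation and blood vessel growth. Macrophages in poorly perfused tissue rely on this programme, and lactate made by neighbouring cells is a frequent companion of low oxygen there.

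The library hypoxia-lactate 3 stood apart from the other 11. Genes with 10 counts or more numbered 11437 in it and 13198 to 14767 in the others. Mitochondrially encoded genes took 0.486% of its counts and 2.04% to 4.75% of theirs. Of 8669 genes with a mean above 10 CPM (counts after scaling by library size) in the other 11 libraries, it held 132 at a level more than 10-fold below that mean and 289 at more than 4-fold above it. The spread within groups, as a common coefficient of variation, was 38.2% when it was kept and 24.3% when it was left out. Genes that passed, the counts and the list medians are therefore given with and without this library. Reads assigned to genes numbered 22705978 to 49885085 per library. Macrophage genes were abundant in every library: Csf1r, the receptor for the macrophage growth factor, was at 7412, 6612 and 10334 CPM in hypoxia-lactate 1, 2 and 3 and at 5863, 5147 and 5654 CPM in normoxia-lactate 1, 2 and 3. The summed level of 18 macrophage identity genes was 42970 to 48630 CPM in hypoxia-lactate libraries and 45290 to 51910 CPM in normoxia-lactate libraries. The summed level of 8 markers of T and NK cells was 2.821 to 7.18 CPM in hypoxia-lactate libraries and 1.873 to 2.689 CPM in normoxia-lactate libraries, with 3 of the 8, among them the T cell receptor components Cd3e and Cd3d, at 0 in all 6. Most of this sum came from Klrb1c, at 2.68, 3.53 and 7.18 CPM in hypoxia-lactate and 1.12, 1.05 and 1.98 CPM in normoxia-lactate libraries (1.68, adjusted p = 0.238; 1.16 without hypoxia-lactate 3, adjusted p = 0.255). The part of such cells in the results was not tested.

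In lactate medium, low oxygen raised 29 genes and lowered 4 of 14616 tested, which is 0.198% and 0.0274% of them (edgeR quasi-likelihood test, Benjamini-Hochberg adjusted p under 0.05). All 33 changed by at least 2-fold, and for all 33 the 3 hypoxia-lactate libraries lay wholly above or wholly below the 3 normoxia-lactate libraries. Of all tested genes, 8.23% lay wholly above and 11.3% wholly below. Without hypoxia-lactate 3, 98 genes rose and 32 fell of 15088 tested (0.65% and 0.212%, together 0.862%), all 33 among them. The median log2 fold change of all tested genes was -0.03 with every library and -0.01 without hypoxia-lactate 3. Positive changes made up 6967 of the 14616 genes and 7336 of the 15088. Among the 29 raised genes were 4 of 16 tested genes of glucose uptake and upper glycolysis, 3 of 7 of lower glycolysis, 2 of 7 of lactate transport and lactate dehydrogenase, and 2 of 8 prolyl and lysyl hydroxylases. Others, such as Cx3cr1, Ctsk and Tnip3, are on none of these lists.

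The promoters of the genes below show where the HIF core lies close to a transcription start. They are RefSeq windows of the GRCm38.p6 build, from 250 bases before the start to 50 after it, printed 5′ to 3′ along the gene, whereas the deposited counts were made on mm9. Capitals mark every match to ACGTG or GCGTG, the letters of the HIF core, or to their reverse complements CACGT and CACGC. Ankrd37, Egln3 and P4ha1 are shown because they passed the threshold under every alternative analysis, Slc16a3 as the lactate exporter among the raised genes, and Lgals9 as the 1 fall that the naming rule took.
Ankrd37 promoter window, chr8:45999801-46000100, minus strand: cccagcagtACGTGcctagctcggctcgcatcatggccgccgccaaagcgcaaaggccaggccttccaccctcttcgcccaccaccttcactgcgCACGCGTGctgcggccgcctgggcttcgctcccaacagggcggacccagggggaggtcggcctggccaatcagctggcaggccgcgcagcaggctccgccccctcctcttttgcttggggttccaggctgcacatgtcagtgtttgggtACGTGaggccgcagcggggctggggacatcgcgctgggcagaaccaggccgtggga
Egln3 promoter window, chr12:54203825-54204124, minus strand: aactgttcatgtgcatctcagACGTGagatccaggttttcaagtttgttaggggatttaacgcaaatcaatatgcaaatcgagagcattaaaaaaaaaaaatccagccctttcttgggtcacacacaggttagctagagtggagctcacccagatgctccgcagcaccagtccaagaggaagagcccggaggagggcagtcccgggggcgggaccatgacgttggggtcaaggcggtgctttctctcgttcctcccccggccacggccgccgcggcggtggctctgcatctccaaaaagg
P4ha1 promoter window, chr10:59323046-59323345, plus strand: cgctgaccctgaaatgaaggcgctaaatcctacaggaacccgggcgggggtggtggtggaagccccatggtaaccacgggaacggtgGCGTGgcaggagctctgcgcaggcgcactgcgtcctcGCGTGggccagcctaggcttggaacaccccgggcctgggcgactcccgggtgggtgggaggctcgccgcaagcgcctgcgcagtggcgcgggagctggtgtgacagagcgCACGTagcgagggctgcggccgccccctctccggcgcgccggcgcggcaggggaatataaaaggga
Slc16a3 promoter window, chr11:120948817-120949116, plus strand: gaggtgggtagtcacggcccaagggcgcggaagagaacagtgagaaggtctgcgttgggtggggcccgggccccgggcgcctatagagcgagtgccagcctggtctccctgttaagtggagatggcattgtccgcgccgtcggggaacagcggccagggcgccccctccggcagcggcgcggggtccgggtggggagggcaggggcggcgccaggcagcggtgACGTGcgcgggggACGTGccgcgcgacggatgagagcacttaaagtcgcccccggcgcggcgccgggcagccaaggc
Lgals9 promoter window, chr11:78984875-78985174, minus strand: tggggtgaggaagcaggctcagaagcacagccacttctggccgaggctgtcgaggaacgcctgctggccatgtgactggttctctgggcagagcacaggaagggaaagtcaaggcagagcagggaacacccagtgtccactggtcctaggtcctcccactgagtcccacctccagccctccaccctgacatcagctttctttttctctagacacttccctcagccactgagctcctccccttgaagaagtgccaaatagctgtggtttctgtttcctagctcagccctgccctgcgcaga
Ankrd37 held 4 matches, 2 of them overlapping in CACGCGTG, P4ha1 held 3, Slc16a3 held 2 and Egln3 held 1, while the Lgals9 window had no such letters. Other genes went the other way: the windows of the raised Tpi1, Tnip3 and Ctsk held 0 matches and that of the fallen Pacsin1 held 1. Of 2 windows of genes lowered with every library, 1 (50%) held the core. Of the 28 raised genes with a symbol, 26 matched the table, and 28 of their 35 windows (80%) held the core. It was found in 60.9% of 12936 windows of all tested genes and in 43.8% of all 32817 windows of the table. Among genes raised without hypoxia-lactate 3 the share was 65.7% of 102 windows, and among those lowered there 60.7% of 28. ACGTG also lies within CACGTG, the E-box, where it is counted on both strands, so a match is a description of the letters and not a binding site.

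Egln3, a prolyl hydroxylase that marks HIF alpha subunits and is itself a HIF target, had the smallest p of all genes in the fit with every library, and Ankrd37 had it without hypoxia-lactate 3. Its level (ENSMUSG00000035105) was 127, 142 and 118 CPM in hypoxia-lactate 1, 2 and 3, against 5.56, 7.9 and 5.09 CPM in normoxia-lactate 1, 2 and 3. The lowest hypoxia-lactate library was thus far above the highest normoxia-lactate library, and the log2 fold change was 4.38 ± 0.24 (SE; adjusted p = 3.49e-06) with every library and 4.44 ± 0.21 without hypoxia-lactate 3. Egln1, the main oxygen-sensing hydroxylase, was at 144, 120 and 450 CPM in hypoxia-lactate libraries and at 71.7, 78.9 and 70.3 CPM in normoxia-lactate libraries. The groups did not overlap, but the third library alone was far above the rest, and the difference missed the threshold (1.69 ± 0.42, adjusted p = 0.164; 0.84 ± 0.22 without that library, adjusted p = 0.108). Transcripts of the sensed subunits themselves overlapped between groups: Hif1a was at 58.9, 61 and 35.4 CPM in hypoxia-lactate and at 40.3, 46 and 50.7 CPM in normoxia-lactate libraries (0.18 ± 0.22, adjusted p = 0.725; 0.39 without hypoxia-lactate 3, adjusted p = 0.282). Epas1, which encodes the other main alpha subunit, differed by 0.18 ± 0.33 (adjusted p = 0.822; 0.15 without that library), and their partner Arnt by -0.11 ± 0.32 (adjusted p = 0.888; 0.22 without that library). Vhl, the ligase subunit that recognises hydroxylated HIF, was at 28.8 and 28.7 CPM in hypoxia-lactate 1 and 2 but at 3.68 CPM in hypoxia-lactate 3, and at 25.5 to 28.6 CPM in normoxia-lactate libraries. In all, 1 of 9 tested HIF subunits and oxygen sensors rose and 0 fell, or 1 and 0 of 10 without hypoxia-lactate 3. The median was 0.18 in both fits.

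Ankrd37 (ENSMUSG00000050914), an ankyrin repeat gene known as a direct HIF target, was at 82.5, 59.5 and 135 CPM in hypoxia-lactate libraries and at 3.83, 4.21 and 3.91 CPM in normoxia-lactate libraries. All 3 hypoxia-lactate values were more than 10-fold above any normoxia-lactate value, and the log2 fold change was 4.53 ± 0.30 (adjusted p = 1.24e-05; 4.15 ± 0.18 without hypoxia-lactate 3). Ero1l, the oxidase that drives disulfide formation in the endoplasmic reticulum, was at 86.7, 105 and 102 CPM in hypoxia-lactate libraries and at 24.2, 29.6 and 31.8 CPM in normoxia-lactate libraries (1.78 ± 0.20, adjusted p = 0.00321; 1.75 ± 0.19 without hypoxia-lactate 3). Hypoxia-lactate 3 lay between the other 2 libraries of its group for this gene. Narf, a prelamin-binding factor, rose by 1.25 ± 0.18 (adjusted p = 0.0104; 1.31 without hypoxia-lactate 3) and Stc2, a secreted glycoprotein hormone, by 3.86 ± 0.66 (adjusted p = 0.0396; 4.01 without that library). Stc2 was at only 1.78 to 3.03 CPM in hypoxia-lactate and 0.0593 to 0.229 CPM in normoxia-lactate libraries. Of 24 tested genes on the list of other hypoxia-responsive genes, 4 rose and 0 fell, 21 were positive and the median was 1.28. Without hypoxia-lactate 3, 6 rose, among them Ddit4, an inhibitor of mTOR signalling, and the cytokine gene Mif, and the median was 0.83. The groups did not overlap for 13 members upward and 2 downward, where 8.23% and 11.3% of all tested genes were without overlap in these directions.

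**Figure D1:**
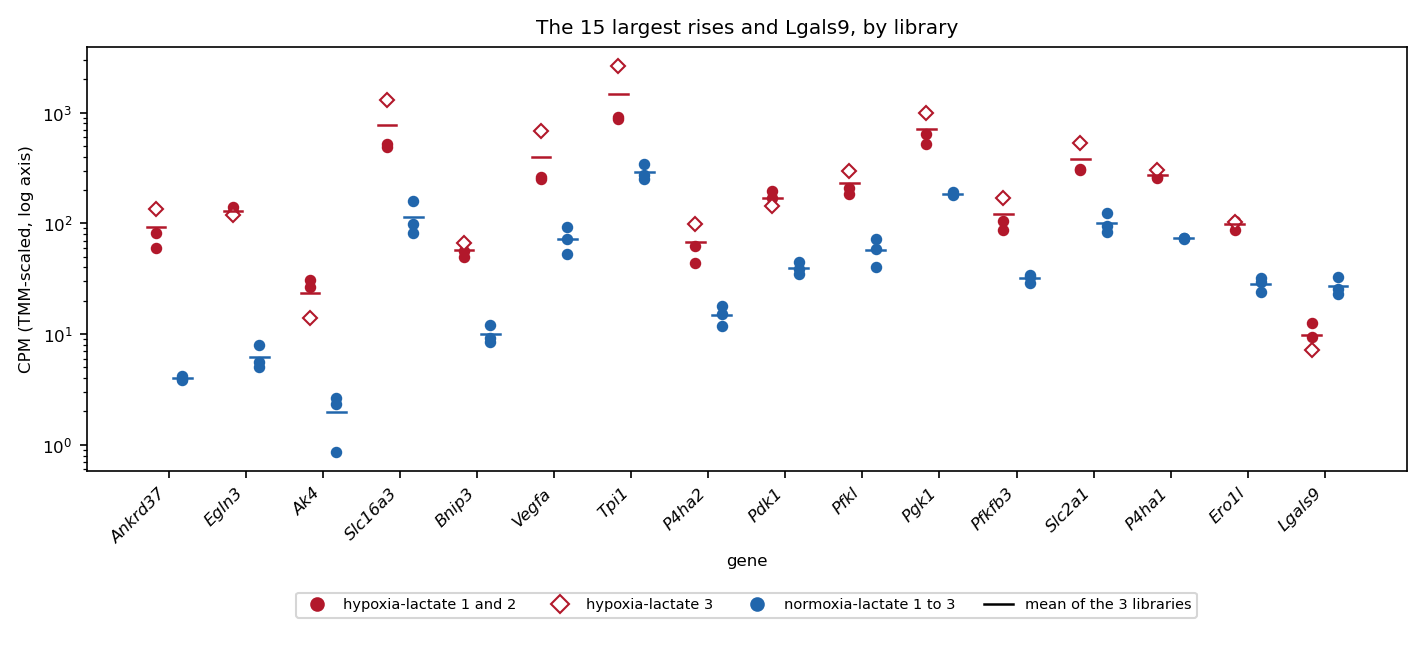
Level by library (CPM, log axis) of Lgals9 and of the 15 largest rises that the naming rule took. Filled red circles are hypoxia-lactate 1 and 2, open diamonds hypoxia-lactate 3, blue circles normoxia-lactate libraries and bars the means of 3. The rule required a mean of at least 5 CPM, a symbol and no overlap of the libraries. Mgarp and Stc2 rose by more than some genes drawn but were below that level. ENSMUSG00000087562, raised but without a symbol, had 193, 103 and 55 counts in hypoxia-lactate and 3, 4 and 0 in normoxia-lactate libraries. The groups are apart for every gene because the rule required it. Hypoxia-lactate 3 lies well above the other red points for Slc16a3 (1298 CPM against 521 and 494), Vegfa and Tpi1 and below them for Ak4.

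For glucose entry and the first steps of glycolysis, 4 of 16 tested genes rose: Slc2a1, Hk2, Pfkl and Pfkfb3. Slc2a1 (ENSMUSG00000028645), the basal glucose transporter, was at 304, 313 and 529 CPM in hypoxia-lactate libraries and at 94.2, 125 and 83.4 CPM in normoxia-lactate libraries. Its lowest hypoxia-lactate level was more than 2-fold above its highest normoxia-lactate level, and the log2 fold change was 1.92 ± 0.26 (adjusted p = 0.0104; 1.61 ± 0.20 without hypoxia-lactate 3). Hk2, the inducible hexokinase that traps glucose in the cell, was at 167, 187 and 244 CPM in hypoxia-lactate and 78.7, 89.9 and 68.9 CPM in normoxia-lactate libraries (1.33 ± 0.18, adjusted p = 0.0104; 1.15 ± 0.15 without hypoxia-lactate 3). Of the other hexokinases, Hk1 differed by 0.75 ± 0.27 (adjusted p = 0.271; 0.36 without hypoxia-lactate 3) and Hk3 by -0.22 ± 0.21 (adjusted p = 0.64; -0.43 without that library), each with overlapping groups. Phosphofructokinase, the committed step, has 3 genes. Pfkl rose by 2.01 ± 0.29 (adjusted p = 0.0108; 1.77 ± 0.26 without hypoxia-lactate 3). Pfkp was at 1.52 ± 0.33 (adjusted p = 0.117) and passed without hypoxia-lactate 3 (0.92 ± 0.19, adjusted p = 0.0447), and Pfkm was at 0.51 ± 0.32 (adjusted p = 0.471) and -0.10 without that library. Whether these genes differ from each other in their change was not tested.

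Pfkfb3 makes fructose bisphosphate that activates phosphofructokinase, and it was the member of its family that passed. It was at 88, 106 and 170 CPM in hypoxia-lactate libraries and at 32.5, 28.9 and 34.5 CPM in normoxia-lactate libraries (1.93 ± 0.24, adjusted p = 0.00576; 1.60 ± 0.15 without hypoxia-lactate 3). Pfkfb4, another member of that enzyme family, was at 60.4, 58.3 and 83.4 CPM in hypoxia-lactate and 70, 71.5 and 67.4 CPM in normoxia-lactate libraries (-0.05 ± 0.18, adjusted p = 0.915; -0.24 without hypoxia-lactate 3). Slc2a3, a second glucose transporter, differed by 0.03 ± 0.27 (adjusted p = 0.963; 0.29 without that library). None of the 16 genes fell, and their median was 0.93. Without hypoxia-lactate 3, 5 rose and the median was 0.70.

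Of the enzymes of lower glycolysis, Tpi1, Pgk1 and Pgam1 rose in both fits. Leaving out hypoxia-lactate 3 lowered the rise of Tpi1 and Pgk1 and hardly moved that of Pgam1. Pgk1, phosphoglycerate kinase, was at 525, 644 and 987 CPM in hypoxia-lactate and at 180, 194 and 184 CPM in normoxia-lactate libraries (1.95 ± 0.29, adjusted p = 0.0123; 1.65 ± 0.24 without hypoxia-lactate 3). Pgam1, phosphoglycerate mutase, was steady within groups, at 792, 769 and 815 CPM in hypoxia-lactate and 357, 336 and 346 CPM in normoxia-lactate libraries (1.19 ± 0.18, adjusted p = 0.0123; 1.17 ± 0.17 without hypoxia-lactate 3). Tpi1, triose phosphate isomerase, was at 923, 873 and 2627 CPM in hypoxia-lactate and at 275, 345 and 252 CPM in normoxia-lactate libraries. Its mean fold change was 5.08-fold with every library and 3.09-fold without hypoxia-lactate 3 (adjusted p = 0.0404 and 0.00891). Eno1, enolase, showed the same shape, with 1675, 1694 and 5078 CPM in hypoxia-lactate and 540, 838 and 481 CPM in normoxia-lactate libraries, and passed only in the fit without hypoxia-lactate 3 (1.44 ± 0.26, adjusted p = 0.0198; 2.18 ± 0.42, adjusted p = 0.0706 with it). Gapdh was at 860, 999 and 2432 CPM in hypoxia-lactate and at 708, 900 and 667 CPM in normoxia-lactate libraries, an overlap (0.92 ± 0.41, adjusted p = 0.335; 0.29 ± 0.32 without that library). Pkm, the last enzyme of the pathway, was at 1.16 ± 0.36 (adjusted p = 0.238; 0.68 without that library), and Eno2 at -0.93 ± 0.65 (adjusted p = 0.515; -0.46 without it). Of 7 tested genes of lower glycolysis 3 rose with every library and 4 without hypoxia-lactate 3, with medians of 1.19 and 1.17. The abundant glycolytic genes have processed pseudogenes, and how reads were split among copies is uncertain.

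Among genes of lactate handling, the main exporter and the lactate-producing dehydrogenase subunit rose, and no other member passed. Slc16a3 (ENSMUSG00000025161), the exporter MCT4 of glycolytic cells, was at 521, 494 and 1298 CPM in hypoxia-lactate and at 98.7, 161 and 81.5 CPM in normoxia-lactate libraries. Its mean was 6.77-fold higher with every library (2.76 ± 0.38, adjusted p = 0.0104) and 4.45-fold higher without hypoxia-lactate 3 (2.15 ± 0.25, adjusted p = 0.00158). Ldha, which turns pyruvate into lactate, was at 1833, 1760 and 3460 CPM in hypoxia-lactate and at 610, 845 and 606 CPM in normoxia-lactate libraries (1.77 ± 0.30, adjusted p = 0.0383; 1.38 ± 0.23 without hypoxia-lactate 3). Ldhb, the subunit favoured for lactate oxidation, was at 1.27, 2.51 and 1.48 CPM in hypoxia-lactate and at 4.02, 4.62 and 5.45 CPM in normoxia-lactate libraries. Its groups did not overlap, but the difference missed the threshold (-1.41 ± 0.38, adjusted p = 0.203; adjusted p = 0.0921 without hypoxia-lactate 3). The importers Slc16a1 and Slc16a7 were at -0.49 ± 0.35 and -0.89 ± 0.81, and at -0.14 and -0.33 without hypoxia-lactate 3. Bsg, a chaperone of lactate transporters, was at 0.54 ± 0.24 (adjusted p = 0.332; 0.61 without that library). Hcar1, a lactate receptor, was not tested, with no more than 0.0208 CPM in any of the 6 libraries. Of 7 tested genes on this list 2 rose and 0 fell, with a median of -0.49 and, without hypoxia-lactate 3, -0.14.

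Pdk1 (ENSMUSG00000006494), the kinase that shuts pyruvate out of mitochondrial oxidation by inhibiting pyruvate dehydrogenase, was at 196, 170 and 143 CPM in hypoxia-lactate and at 38.7, 44.8 and 35.1 CPM in normoxia-lactate libraries. Here hypoxia-lactate 3 was the lowest of its group, and the change was alike with and without it (2.10 ± 0.24, adjusted p = 0.00311; 2.21 ± 0.22, adjusted p = 0.000634). Its relatives Pdk2, Pdk3 and Pdk4 were at -0.18 ± 0.26, -0.72 ± 0.54 and -0.27 ± 0.77 with every library and at -0.16, -0.24 and 0.15 without hypoxia-lactate 3, none past the threshold. Mpc1, a subunit of the mitochondrial pyruvate carrier, was at 24.3, 25.7 and 22.1 CPM in hypoxia-lactate and at 38.6, 39.7 and 50.9 CPM in normoxia-lactate libraries (-0.84 ± 0.23, adjusted p = 0.209; -0.79 without hypoxia-lactate 3). Pdha1 and Pdhb, subunits of the dehydrogenase itself, differed by -0.23 ± 0.19 and 0.12 ± 0.19 with overlapping groups (-0.09 and 0.05 without hypoxia-lactate 3). Of 12 tested genes 1 rose and 0 fell in either fit, with a median of -0.24 with every library and -0.07 without that one.

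Among genes of mitochondrial adaptation, Ak4 (ENSMUSG00000028527), an adenylate kinase of the mitochondrial matrix, was at 30.7, 26.4 and 13.9 CPM in hypoxia-lactate and at 2.35, 0.869 and 2.67 CPM in normoxia-lactate libraries (3.59 ± 0.51, adjusted p = 0.0104; 3.86 ± 0.43 without hypoxia-lactate 3). Bnip3, a receptor that delivers mitochondria to autophagy, was at 56.6, 49.5 and 67.2 CPM in hypoxia-lactate and at 9.18, 8.5 and 12.2 CPM in normoxia-lactate libraries (2.53 ± 0.36, adjusted p = 0.0104; 2.40 ± 0.35 without hypoxia-lactate 3). The groups of both genes were far apart in every library. The related receptor Bnip3l was at 134, 110 and 229 CPM in hypoxia-lactate and 82.4, 76 and 126 CPM in normoxia-lactate libraries, an overlap (0.73 ± 0.33, adjusted p = 0.332; 0.35 without hypoxia-lactate 3). Ndufa4l2, a HIF-induced relative of a respiratory chain subunit, was at 0.0344, 1.31 and 0.712 CPM in hypoxia-lactate and at 0, 0.0198 and 0 CPM in normoxia-lactate libraries (adjusted p = 0.169). Lonp1, the matrix protease, was at 58.2 and 67.9 CPM in hypoxia-lactate 1 and 2, at 385 CPM in hypoxia-lactate 3 and at 56.9 to 67.4 CPM in normoxia-lactate libraries, so that its log2 difference was 1.42 with the third library and -0.02 without it. Of 11 tested members 2 rose and 0 fell in either fit, and the median was 0.67 with hypoxia-lactate 3 and 0.03 without it.

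The respiratory chain itself gave 0 calls with edgeR in either fit. Of 31 nuclear-encoded genes 12 were positive, with a median of -0.13, and -0.15 without hypoxia-lactate 3. At an unadjusted p under 0.05, 1 of them was lower with every library and 2 without hypoxia-lactate 3. DESeq2 and limma-voom called 0 with every library, and limma-voom with library quality weights and DESeq2 without hypoxia-lactate 3 called 1 lower each. Over all tested genes these 4 fits called 154, 3, 252 and 232 lower, the last of 15088 genes and the others of 14616. The share of all tested genes at an unadjusted p under 0.05 in this comparison is not given here. List counts at that cut-off therefore cannot be set against it. All 13 mitochondrially encoded genes were negative, with a median of -0.63, beside the low mitochondrial share of hypoxia-lactate 3 (0.486%, against 3.10% and 2.92% in hypoxia-lactate 1 and 2 and 2.45% to 3.51% in normoxia-lactate libraries). Without that library 6 of the 13 were positive and the median was -0.09. In neither fit had a member an unadjusted p under 0.05, and 0 were called by DESeq2 with or without that library and by limma-voom with or without quality weights. The 24 genes of the tricarboxylic acid cycle had a median of -0.10 and, without hypoxia-lactate 3, -0.12, with 0 edgeR calls in both (unadjusted p under 0.05 for 1 higher and 2 lower in each). DESeq2 gave 0 calls with every library and without hypoxia-lactate 3, limma-voom 0, and limma-voom with quality weights 1 higher and 2 lower.

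Other oxygen-dependent enzymes and secreted factors rose too. P4ha1 (ENSMUSG00000019916), a catalytic subunit of collagen prolyl hydroxylase, was at 260, 256 and 301 CPM in hypoxia-lactate and at 73.7, 74.5 and 71.6 CPM in normoxia-lactate libraries (1.89 ± 0.20, adjusted p = 0.00258; 1.81 ± 0.19 without hypoxia-lactate 3). It was among the steadiest of the raised genes within both groups. P4ha2, its paralogue, rose by 2.19 ± 0.30 (adjusted p = 0.0104; 1.82 ± 0.22 without hypoxia-lactate 3), and Plod2, a lysyl hydroxylase, passed without hypoxia-lactate 3 (1.65, adjusted p = 0.0415). Of 8 tested prolyl and lysyl hydroxylases 2 rose with every library and 3 without that one, with medians of 0.32 and 0.26. Kdm3a, a histone demethylase that needs oxygen, was at 120, 112 and 98.2 CPM in hypoxia-lactate and at 42, 42.5 and 49.8 CPM in normoxia-lactate libraries (1.30 ± 0.20, adjusted p = 0.0182; 1.37 ± 0.19 without hypoxia-lactate 3). Jmjd6 joined it without hypoxia-lactate 3 (1.06, adjusted p = 0.00891), and the median of 15 tested oxygen-dependent demethylases was 0.49 with every library and 0.23 without that one. Pgm1, phosphoglucomutase, which links glucose to glycogen, was the 1 of 8 tested glycogen genes that rose (1.19 ± 0.21, adjusted p = 0.0404; 1.24 ± 0.19 without hypoxia-lactate 3).

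Vegfa (ENSMUSG00000023951), the endothelial growth factor, was at 252, 265 and 687 CPM in hypoxia-lactate and at 72.5, 93.2 and 52.5 CPM in normoxia-lactate libraries. The lowest hypoxia-lactate library was more than 2-fold above the highest normoxia-lactate library. Its mean was 5.52-fold higher with every library (2.46 ± 0.37, adjusted p = 0.0137) and 3.55-fold higher without hypoxia-lactate 3 (1.83 ± 0.22, adjusted p = 0.00184). Flt1, a receptor for this factor, passed without hypoxia-lactate 3 (1.11, adjusted p = 0.0394; adjusted p = 0.123 with it). Of 14 tested angiogenic and vascular factors 1 rose with every library and 2 without that one, with medians of 0.55 and 0.60. Mif, Plod2, Jmjd6 and Flt1 were named after their values were seen.

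**Figure D2:**
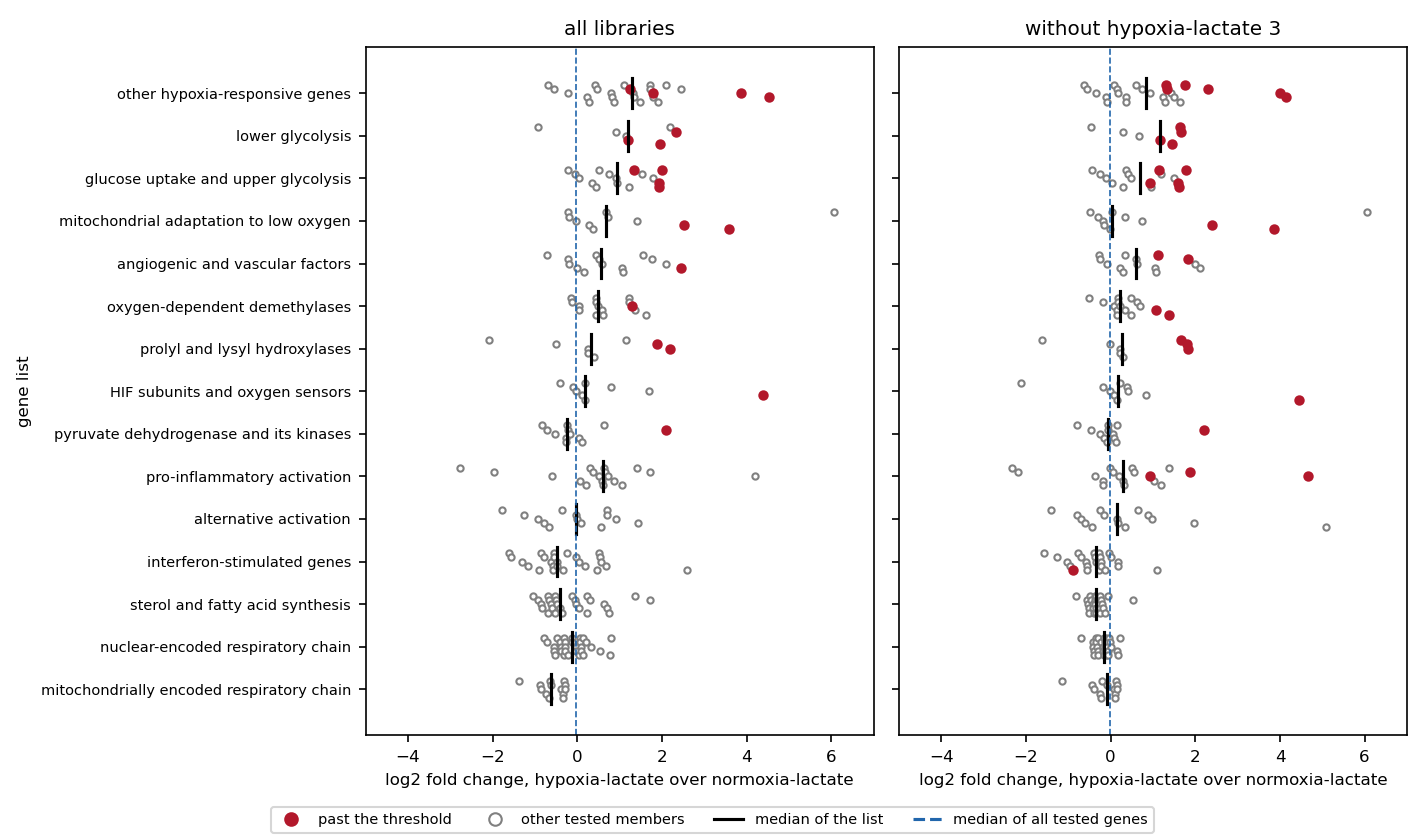
Log2 fold change of hypoxia-lactate over normoxia-lactate for each tested member of 15 gene lists, with all libraries (left) and without hypoxia-lactate 3 (right); red points passed the threshold, black bars are list medians and the dashed line is the median of all tested genes. The mitochondrially encoded genes sit at a median of -0.63 on the left and -0.09 on the right.

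Among immune genes, Cx3cr1, the fractalkine receptor, was at 275, 234 and 386 CPM in hypoxia-lactate and at 91.2, 122 and 85.8 CPM in normoxia-lactate libraries (1.58 ± 0.28, adjusted p = 0.0433; 1.35 ± 0.25 without hypoxia-lactate 3). It was the 1 of 8 tested chemokine receptors that rose. Ctsk, cathepsin K, a collagen-degrading protease, was at 279, 237 and 550 CPM in hypoxia-lactate and at 101, 84.2 and 134 CPM in normoxia-lactate libraries (1.74 ± 0.31, adjusted p = 0.0457; 1.27 ± 0.22 without hypoxia-lactate 3), the 1 of 14 tested cathepsins that rose. It is also on the list of osteoclast markers. Their summed level, which includes Ctsk itself, was 435.3 to 869 CPM in hypoxia-lactate and 319.7 to 569.2 CPM in normoxia-lactate libraries. Of the 9 members 1, Calcr, was at 0 in all 6. Of 7 tested members 4 were positive and 3 negative, with a median of 0.25, or 0.13 without hypoxia-lactate 3. The part of osteoclast-like cells in the rise of Ctsk was not tested. Tnip3, a brake on NF-κB signalling, was at 86.6, 84.5 and 86.1 CPM in hypoxia-lactate and at 29.8, 38.4 and 37.4 CPM in normoxia-lactate libraries (1.28 ± 0.19, adjusted p = 0.0123; 1.28 ± 0.17 without hypoxia-lactate 3). This gene was named after its values were seen.

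Calls on the lists of activation state differed between tools. Of 18 tested pro-inflammatory genes 0 passed edgeR's test with every library (unadjusted p under 0.05 for 5 higher and 1 lower; DESeq2 gave 3 higher, limma-voom 0) and 3 without hypoxia-lactate 3. With quality weights limma-voom gave 4 higher, and DESeq2 without hypoxia-lactate 3 gave 6 higher. Over all tested genes DESeq2 called 283 higher, limma-voom 37 and limma-voom with quality weights 485, and DESeq2 called 298 higher without hypoxia-lactate 3. The median of the list was 0.60 and, without that library, 0.30. Nos2, inducible nitric oxide synthase, was at 6.16, 1.8 and 0.593 CPM in hypoxia-lactate and at 0.208, 0.138 and 0.111 CPM in normoxia-lactate libraries, from 179, 48 and 10 counts against 10, 7 and 5. The lowest hypoxia-lactate library was thus above the highest normoxia-lactate library, with a more than 10-fold range within the group, and the gene passed without hypoxia-lactate 3 (4.67 ± 0.91, adjusted p = 0.0337) but not with it (4.20 ± 1.13, adjusted p = 0.205). Il1b, the pyrogenic cytokine, was at 5.44, 7.13 and 4.09 CPM in hypoxia-lactate and at 1.52, 1.4 and 2.16 CPM in normoxia-lactate libraries, and Tnfaip3, a deubiquitinase that restrains NF-κB, at 28.1, 30.4 and 36.3 CPM in hypoxia-lactate and at 15.4, 15.7 and 14.6 CPM in normoxia-lactate libraries. Both passed without hypoxia-lactate 3 (adjusted p = 0.0337 and 0.0473) and not with it (adjusted p = 0.173 and 0.126).

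Mrc1, the mannose receptor and a marker of alternative activation, was at 3.1, 5.89 and 1.25 CPM in hypoxia-lactate and at 10.8, 11.1 and 13.7 CPM in normoxia-lactate libraries. Every hypoxia-lactate library was below every normoxia-lactate library, yet the test missed the threshold in both fits (-1.79 ± 0.45, adjusted p = 0.171; -1.41 ± 0.31, adjusted p = 0.0555 without hypoxia-lactate 3). Arg1, arginase, was barely detected, with 0, 31 and 2 counts in hypoxia-lactate and 0, 2 and 0 counts in normoxia-lactate libraries, and did not enter the test with every library. Of the alternative activation genes 14 were tested with every library and 15 without hypoxia-lactate 3. In either fit 0 passed edgeR's test (unadjusted p under 0.05 for 2 higher and 3 lower with every library; DESeq2 gave 1 lower, limma-voom 0). With quality weights limma-voom gave 2 lower, and so did DESeq2 without hypoxia-lactate 3. The median was -0.02 and, without that library, 0.16. The summed level of neutrophil markers was 221.9 to 372.7 CPM in hypoxia-lactate and 146.9 to 209.3 CPM in normoxia-lactate libraries, most of it from Mmp8 and Csf3r, while Ly6g and Elane were below 1 CPM in all 6. Their part in the activation genes was not tested.

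The genes that fell were fewer. Lgals9 (ENSMUSG00000001123), which encodes the immune-regulatory lectin galectin-9, was at 9.46, 12.6 and 7.18 CPM in hypoxia-lactate and at 22.8, 32.7 and 25.6 CPM in normoxia-lactate libraries. The groups were apart, and the log2 change was -1.47 ± 0.26 (adjusted p = 0.0456; -1.30 ± 0.22, adjusted p = 0.016 without hypoxia-lactate 3). It was the 1 of 13 tested galectins and Siglecs that passed, and it kept its call in 12 of 25 alternatives. The other 3, named after their values were seen, were Ftl1-ps1, Pacsin1 and 9330161L09Rik. Ftl1-ps1, a copy of the ferritin light chain gene, was at 222, 264 and 245 CPM in hypoxia-lactate and at 663, 863 and 524 CPM in normoxia-lactate libraries (-1.49 ± 0.22, adjusted p = 0.0133; -1.49 ± 0.24 without hypoxia-lactate 3). Ftl1 itself was at 5178, 5303 and 7005 CPM in hypoxia-lactate and at 10264, 19207 and 9807 CPM in normoxia-lactate libraries (-1.17, adjusted p = 0.209; -1.32 without hypoxia-lactate 3), and reads of the gene and its copy may be split between them.

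Pacsin1, an endocytic adaptor, had 0 counts in each hypoxia-lactate library and 28, 27 and 23 counts in normoxia-lactate 1, 2 and 3 (adjusted p = 0.0396; 0.0213 without hypoxia-lactate 3). With a floor of 3 counts over the hypoxia-lactate group, or 0.0413 CPM, it was at least 13.1-fold lower. The noncoding gene 9330161L09Rik likewise had 0 counts in each hypoxia-lactate library, against 24, 19 and 21 counts in normoxia-lactate libraries, at least 10.8-fold lower (adjusted p = 0.0457; 0.0293 without hypoxia-lactate 3). Both had counts in NaCl medium at low oxygen: 13, 7 and 15 for Pacsin1 and 25, 13 and 16 for 9330161L09Rik in hypoxia-NaCl 1, 2 and 3, against 23, 23 and 52 and 16, 14 and 46 in normoxia-NaCl libraries. Floors cover counting error only.

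Setting hypoxia-lactate 3 aside brought further named genes past the threshold. Junos, a noncoding gene read opposite to Jun, was at 8.22, 14.1 and 7.3 CPM in hypoxia-lactate and at 0.895, 2.85 and 1.62 CPM in normoxia-lactate libraries (2.63 ± 0.55 without that library, adjusted p = 0.0463). Whether the counting told reads of Jun and Junos apart is unknown, because no source used here states its strand setting. Folr1, a folate receptor, was at 49.1, 22.2 and 27.5 CPM in hypoxia-lactate and at 10.5, 9.74 and 15.4 CPM in normoxia-lactate libraries (1.58 ± 0.33, adjusted p = 0.0478). Arrdc3, an arrestin-domain protein, passed likewise (1.41 ± 0.29, adjusted p = 0.0429), with no overlap of all 3 and 3 libraries.

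For another 5 of these raised genes hypoxia-lactate 3 lay within or below the normoxia-lactate range. Gypc, a glycophorin, was at 30.5, 34 and 7.54 CPM in hypoxia-lactate and at 9.66, 11.6 and 11 CPM in normoxia-lactate libraries, and Cysltr1, a leukotriene receptor, at 32.9, 20.7 and 3.5 CPM in hypoxia-lactate and at 6.74, 7.84 and 10.4 CPM in normoxia-lactate libraries. Ddit4 was at 28.8, 37.9 and 9.2 CPM in hypoxia-lactate and at 6.56, 10 and 3.71 CPM in normoxia-lactate libraries. Tnfsf9, a costimulatory ligand of the TNF family, and Flrt3, a leucine-rich transmembrane protein, had 2.37 and 5.22 CPM in hypoxia-lactate 3, below all 3 normoxia-lactate libraries (4.67 to 10.8 and 6.42 to 11 CPM). The rise of these genes rests on hypoxia-lactate 1 and 2.

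**Figure D3:**
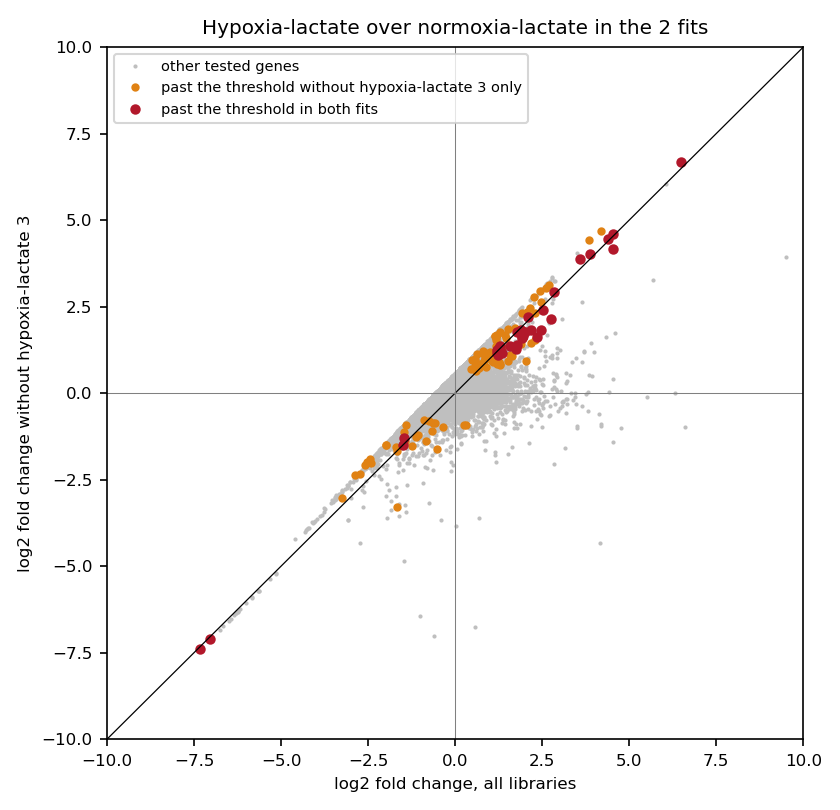
Log2 fold change of hypoxia-lactate over normoxia-lactate with all libraries (x axis) and without hypoxia-lactate 3 (y axis) for every gene tested in both fits; red points are the 33 genes past the threshold in both, orange points those past it only without that library, and the line marks equal values. The red points lie near the line, and many grey genes lie below it on the right, where hypoxia-lactate 3 alone was high.

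Genes that passed as lower without hypoxia-lactate 3 fell into sets that did and did not hold in the third library. Rab3il1, a Rab exchange factor, was at 10.8, 10.7 and 18.2 CPM in hypoxia-lactate and at 30, 30.5 and 32.4 CPM in normoxia-lactate libraries (-1.53 ± 0.24, adjusted p = 0.00891). Hebp1, a heme-binding protein, was at 4.68, 4.61 and 3.92 CPM in hypoxia-lactate and at 12.7, 10 and 13.5 CPM in normoxia-lactate libraries (-1.38 ± 0.28, adjusted p = 0.0415). B4galt4, a galactosyltransferase, was at 3.41, 1.76 and 1.9 CPM in hypoxia-lactate and at 7.68, 7.23 and 8.16 CPM in normoxia-lactate libraries (-1.57 ± 0.32, adjusted p = 0.0421). For these 3, as for Cox6c2, Prpsap2, Ebpl and Tm7sf3, the third library too was below every normoxia-lactate library. Pycard, the inflammasome adaptor ASC, was at 50.8, 39.2 and 119 CPM in hypoxia-lactate and at 74.6, 94.1 and 98.2 CPM in normoxia-lactate libraries (-0.99 ± 0.19, adjusted p = 0.0293; -0.36 ± 0.33, adjusted p = 0.634 with every library). Fcho1, a factor of clathrin-coated pit formation, turned direction: it was at 14.1, 12.3 and 66.2 CPM in hypoxia-lactate and at 25.1, 27.9 and 21.5 CPM in normoxia-lactate libraries, a log2 change of -0.92 ± 0.19 without the third library (adjusted p = 0.0434) and 0.31 ± 0.50 with it.

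**Figure D4:**
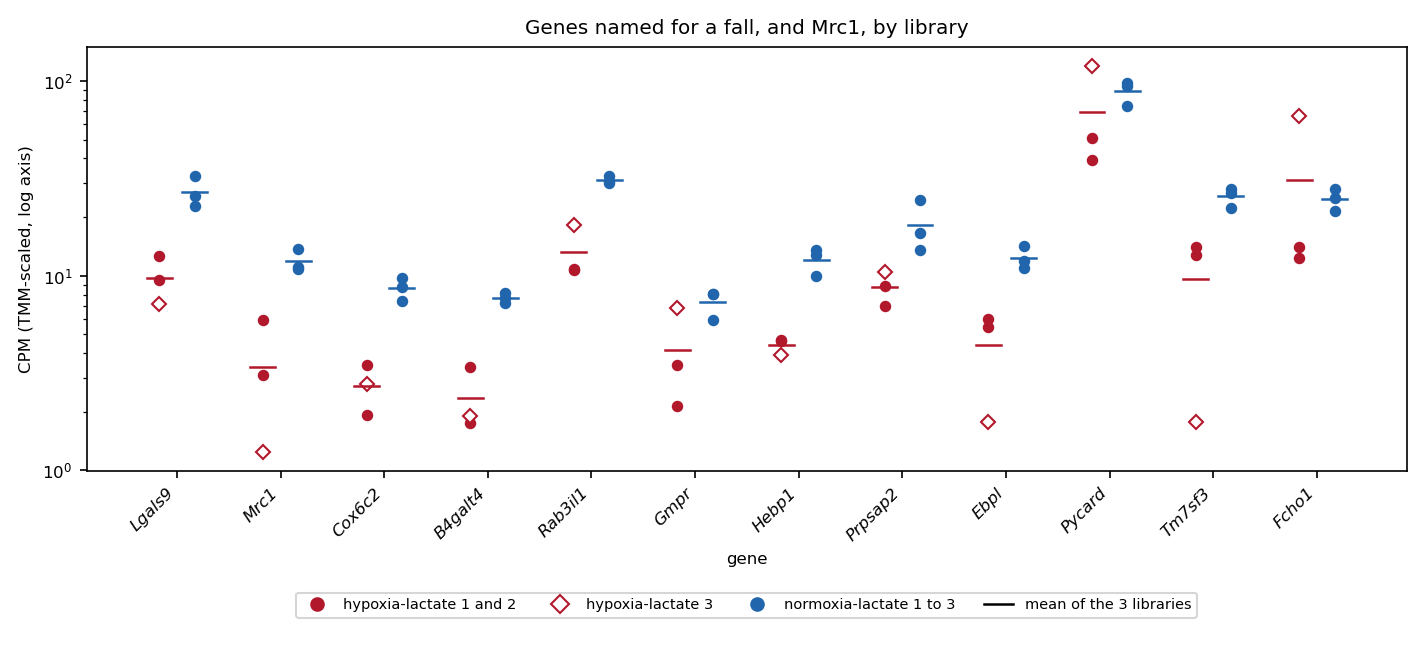
Level by library (CPM, log axis) of Lgals9, of Mrc1, which missed the threshold, and of the 10 genes named for a fall in the fit without hypoxia-lactate 3; symbols and mean bars distinguish hypoxia-lactate 1 and 2, hypoxia-lactate 3 and normoxia-lactate libraries. Gmpr overlapped between groups, and for Pycard and Fcho1 the open diamond of hypoxia-lactate 3 (119 and 66.2 CPM) lies above all normoxia-lactate points.

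The interferon and sterol lists had negative medians and few or no single calls. Of 25 tested interferon-stimulated genes 0 passed edgeR's test with every library (unadjusted p under 0.05 for 1 higher and 6 lower; DESeq2 gave 1 lower, limma-voom 0) and 1, Bst2, a restriction factor that tethers virions, without hypoxia-lactate 3. Bst2 was at 32.8, 32 and 55.5 CPM in hypoxia-lactate and at 57.2, 65.7 and 55.6 CPM in normoxia-lactate libraries (-0.88 ± 0.16, adjusted p = 0.019; -0.57 ± 0.23, adjusted p = 0.303 with every library). With quality weights limma-voom gave 2 lower, and DESeq2 without hypoxia-lactate 3 gave 3 lower. Over all tested genes these fits called 252 and 232 lower, and DESeq2 with every library called 154 lower. The list had a median of -0.48 and 12 members whose hypoxia-lactate libraries were all below the normoxia-lactate ones, where 11.3% of all tested genes were. Without hypoxia-lactate 3 the median was -0.35 and 3 of 25 were positive. Of 27 tested genes of sterol and fatty acid synthesis 0 passed edgeR's test in either fit (unadjusted p under 0.05 for 2 higher and 4 lower with every library; DESeq2 gave 1 higher, limma-voom 0, or 1 higher with quality weights). Of these genes 11 were wholly lower without overlap, and the median was -0.41 with every library and -0.35 without hypoxia-lactate 3, when 1 of 27 was positive. Of all tested genes 6967 of 14616 were positive with every library and 7336 of 15088 without hypoxia-lactate 3. Of 20 tested endoplasmic reticulum chaperone and unfolded protein response genes 17 were positive in either fit and 0 passed edgeR's test, with medians of 0.28 and 0.23. With every library 6 were higher at an unadjusted p under 0.05, and DESeq2 and limma-voom called 0. Limma-voom with quality weights and DESeq2 without hypoxia-lactate 3 called 1 higher each. Dusp2, a phosphatase induced early after stimulation, was the 1 of 18 immediate early genes that passed, without hypoxia-lactate 3, at 0.447, 0.75 and 0 CPM in hypoxia-lactate and 3.39, 2.11 and 3.71 CPM in normoxia-lactate libraries (-2.37 ± 0.44, adjusted p = 0.0279).

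The change under low oxygen was then set beside that in NaCl medium, the question being whether lactate alters the response to oxygen. All 33 genes had the same sign in lactate and in NaCl medium, and 20 of the 29 raised in lactate medium were also among the 39 raised in NaCl medium (0.267% of tested genes). The difference between the log2 changes, tested in the same fit, passed for 0 of 14616 genes with edgeR. At an unadjusted p under 0.05 it stood at 497 of these genes, and at 609 of 15088 without hypoxia-lactate 3, where 0 passed as well. Each count is a share below 0.05 of the genes tested. DESeq2 gave 1 gene, limma-voom 0, limma-voom with library quality weights 2, and DESeq2 without hypoxia-lactate 3 gave 3. Egln3 had a log2 change of 4.38 in lactate and 4.91 in NaCl medium, a difference of -0.53 ± 0.31 (unadjusted p = 0.11). Slc16a3 had 2.76 in lactate and 2.27 in NaCl medium (difference 0.49 ± 0.51, unadjusted p = 0.359), and that difference was -0.12 without hypoxia-lactate 3. Vegfa and Tpi1 likewise had differences of 0.44 ± 0.50 and 0.90 ± 0.55, and of -0.19 and 0.19 without that library. Ak4 had 3.59 in lactate and 4.70 in NaCl medium (difference -1.11 ± 0.66, unadjusted p = 0.118).

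**Figure D5:**
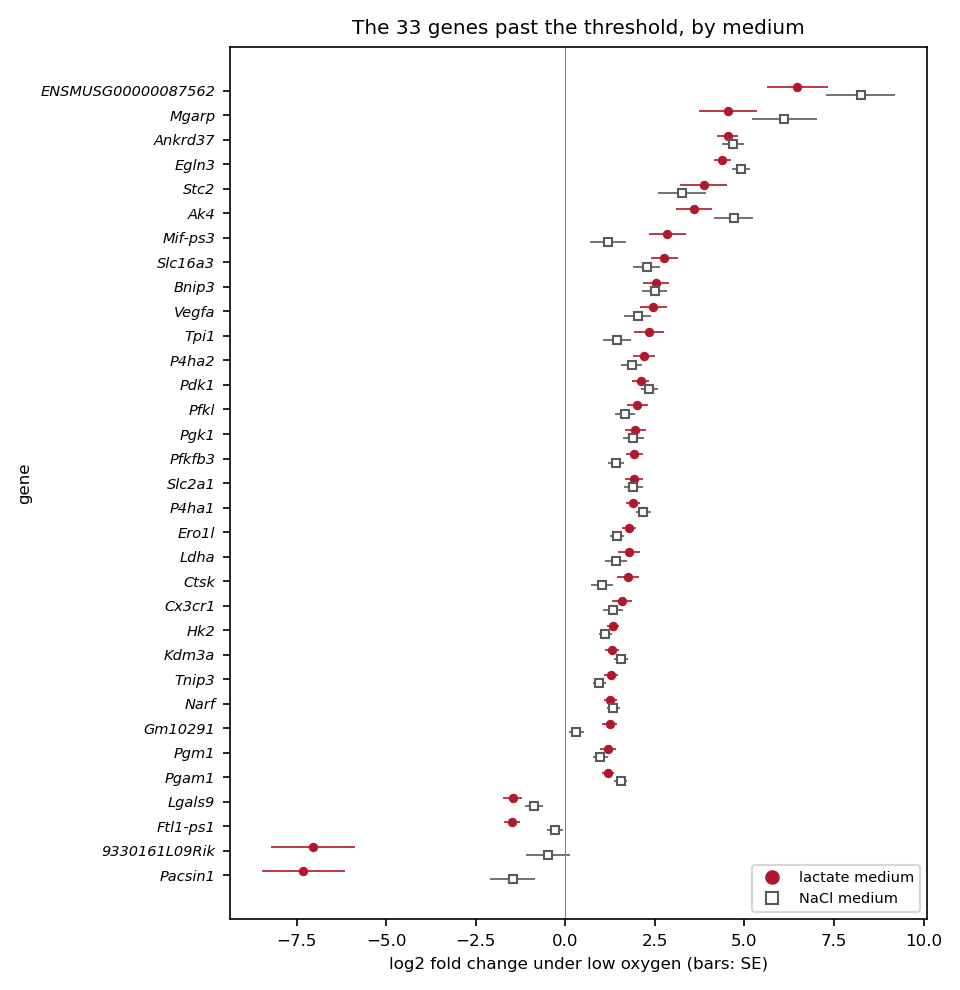
Log2 fold change under low oxygen for the 33 genes past the threshold in lactate medium (red circles, bars SE), with the change of the same genes in NaCl medium (open squares). All pairs share a sign, and the widest gaps are at Pacsin1 and 9330161L09Rik, whose hypoxia-lactate libraries were all at 0 counts, so that their fitted changes depend on the prior count.

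For this difference 497 of all 14616 tested genes had an unadjusted p under 0.05. Of the 33 genes 5 did, and 0 passed after adjustment. They were Pacsin1 (unadjusted p = 0.00171), 9330161L09Rik (unadjusted p = 0.000686), Ftl1-ps1 (-1.20 ± 0.31, unadjusted p = 0.00203), Gm10291 (0.93 ± 0.30, unadjusted p = 0.00769) and Mif-ps3 (1.64 ± 0.70, unadjusted p = 0.0365), all named after their values were seen. Ftl1-ps1 changed by -1.49 in lactate and by -0.29 in NaCl medium. Among genes named without hypoxia-lactate 3, Cox6c2 changed by -1.68 in lactate medium and its difference from NaCl medium was -1.67 in that fit (unadjusted p = 0.00257), and Prpsap2 had a difference of -1.09 (unadjusted p = 0.00597). None of these passed the adjustment over all tested genes. All of them were chosen on the change in lactate medium, which is part of the difference. The choice itself thus favours small unadjusted p-values among them.

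The number of calls depended on which libraries were kept. Of the 33 genes, Ankrd37, Egln3 and P4ha1 were called in all 25 alternatives. Without normoxia-lactate 1, 2 and 3 in turn, 3, 12 and 8 of the 33 were called, and a fit of the 6 compared libraries alone kept 3, although all 33 kept their sign in each. Without hypoxia-lactate 1 and 2 in turn, 21 and 28 were called, and without 1 of the NaCl libraries 21 to 25. Pdk1 and Ero1l lost their call without normoxia-lactate 1 (adjusted p = 0.0531 and 0.0546), as did Pfkfb3 (0.073). Slc16a3, Slc2a1, Hk2, Pfkl and P4ha2 lost it without normoxia-lactate 1 (0.106 to 0.108) or normoxia-lactate 3 (0.087 each). Vegfa, Bnip3, Ak4, Pgk1, Pgam1 and Tnip3 lost it without any 1 of the 3 normoxia-lactate libraries, with Vegfa at 0.131, 0.0613 and 0.125. Ldha, Tpi1, Ctsk, Cx3cr1, Pgm1, Stc2 and Lgals9 lost it in 9 to 13 of their alternatives, Narf in 5 and Kdm3a in 6, with the highest adjusted p of Lgals9 at 0.722 in the fit of the 6 compared libraries alone.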

How the data were processed

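Macrophages grown from mouse bone marrow gave 12 RNA-seq libraries, of which 6 are compared here. Per the labels' protocols, poly(A) RNA was selected on beads and sequenced on an Ion Proton. The values the authors deposited are raw counts, 1 per Ensembl gene and library. BWA, HTSeq and mm9 are named, without versions, in the submitters' processing notes. The sources used here give neither the annotation release nor the strand setting. The 5 counter rows that name no gene were left out of library sizes and tests (13.7% to 22.0% of reads outside genes, 8.34% to 18.4% not unique, 0.361% to 0.443% ambiguous, 2.02% to 5.49% not aligned, 0% low quality). Of 37620 identifiers, 32897 had a symbol in a GENCODE annotation of GRCm38, from which no coordinates were used, and of 701 names on 46 gene lists 3 had no identifier.

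Group means were fitted over all 12 libraries with edgeR 4.0.16 under R 4.3.3 (TMM factors, genes kept by filterByExpr, quasi-likelihood test), with p-values adjusted by Benjamini-Hochberg over all genes tested and a threshold of 0.05. CPM values are TMM-scaled. Standard errors were derived from each log2 fold change and its F statistic. The procedure was tested on simulated data with the same spread for every gene and library and no outlying library. That test does not show how the fit fares with hypoxia-lactate 3. The members, gene lists and tests were chosen with earlier results of these data known. Genes named for the size of their change passed the threshold with a mean of at least 5 CPM and no overlap of the libraries. They were the 15 largest rises and 10 largest falls, and 10 more of each without hypoxia-lactate 3. Clone, predicted-gene and pseudogene names and genes without a symbol were skipped. From each list up to 4 risen and 4 fallen members past the threshold were added, at any CPM. Hif1a, Epas1, Egln1, Egln3, Vegfa, Slc2a1, Slc16a3, Ldha, Arg1, Mrc1, Nos2 and Lgals9 were always named, and lists of oxygen sensing, glycolysis, lactate, pyruvate dehydrogenase and mitochondrial genes could be named in full. The text leaves out some.

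The alternatives were other scalings and filters, DESeq2 1.42.0, limma-voom (limma 3.58.1), a block for the library number, a fit of the compared groups alone and leaving out libraries. Library quality weights were added after seeing the data. Library numbers 1 to 3 recur in every group, and the labels say nothing of pairing.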

Additional observations from a re-analysis of the deposited data

How the results depend on the processing

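The 29 higher and 4 lower genes became 42 and 4 with no filter on low counts, 26 and 2 with a minimum mean of 5 CPM, 283 and 154 with DESeq2, 3 and 0 with only the groups compared, and 485 and 252 with library quality weights, an alternative chosen after seeing the data. The share of higher calls was 87.9% in the fit described and 64.8% with DESeq2. With hypoxia-lactate 3 left out, they were 298 and 232 with DESeq2, 158 and 47 with only the groups compared, and 236 and 144 with normoxia-NaCl 1 left out too. Leaving out each library in turn gave 3 to 98 higher and 0 to 32 lower genes, and 0 to 0 genes for the oxygen by lactate difference. That difference had 1 gene with DESeq2, 3 with DESeq2 without hypoxia-lactate 3 and 2 with quality weights. Same-numbered hypoxia-lactate and normoxia-lactate libraries deviated together with correlations of 0.122, 0.126 and 0.023, and each hypoxia-lactate library correlated best with its own number. This describes the data and not the design, and 3 libraries per group are too few to show pairing. The lowest correlation was that of number 3, which holds hypoxia-lactate 3. The labels state no pairing, and the main fit did not pair the libraries. With the replicate block 32 and 2 genes were called, 25 of them among the 33, and without hypoxia-lactate 3 161 and 100. Leaving out each library in turn gave Epas1 -0.05 (without normoxia-lactate 3) to 0.43. Fcho1 was at -0.01 with upper-quartile factors, -0.28 with limma-voom, -0.00 with the block, -0.92 (without hypoxia-lactate 3) to 0.69 over the single libraries left out; where hypoxia-lactate 3 was out, the other fits gave -0.88 (block), -0.91 (DESeq2), -0.91 (only the groups compared) and -0.92 (normoxia-NaCl 1 left out too), and -0.89 with quality weights. Of 1320 pairs of a named gene and an alternative, 1009 kept the side of the threshold and the direction, 133 lost the call, 168 gained it and 10 reversed. A pair without an adjusted p counted as kept unless its direction reversed. Some named genes were chosen because they passed without hypoxia-lactate 3, and fits without that library are among the alternatives. Part of the 168 gains thus followed from the choice of genes. Of the medians of 42 lists under each alternative, 941 moved by less than the SD of the library medians and 108 by more. The causes were not tested.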
